A study of Homo sapiens with 9 samples.

Results

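The hypoxia response genes described here are 37 genes of the cellular response to low oxygen, chosen by symbol: the subunits of the hypoxia-inducible factors (HIF), their oxygen sensors and a feedback inhibitor, and genes that HIF is known to switch on. All 37 symbols matched 1 row each among the 33264 genes of the deposited expression table. The study measured polyA RNA in U87MG, a human glioblastoma cell line, and in lines made resistant to temozolomide, the alkylating drug used against glioblastoma. The R50_OFF group is a resistant clonal line selected in 50 µM temozolomide and taken off the drug after 2 months. The R50 group is a resistant clonal line selected and kept in 50 µM temozolomide, and the parent group is U87MG without this selection. Each group has 3 libraries, 9 in all. All groups were grown in the same serum-containing medium, the labels name no low-oxygen treatment for any of them, and the drug stock was dissolved in DMSO, with no vehicle treatment named for the parent. Each resistant line is 1 clone, so the effect of the drug and the particular history of a clone cannot be told apart, nor can drug withdrawal and the difference between the clones. The labels do not say that the libraries of a group came from separate cultures, so the p-values speak of library-to-library spread alone, which may be technical.

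In well-oxygenated cells the EGLN prolyl hydroxylases use oxygen to mark the HIF alpha subunits, HIF1A and EPAS1 (HIF-2 alpha), for destruction through the VHL ubiquitin ligase. When oxygen is short the alpha subunits persist, pair with ARNT (HIF-1 beta) and bind hypoxia response elements near genes of glucose metabolism, pH control, matrix remodelling, mitochondrial turnover and blood vessel growth. Since oxygen acts on the stability of the alpha proteins, the mRNA level of HIF1A or EPAS1 is not a measure of HIF activity. In glioblastoma this response is known from the poorly perfused tissue around necrosis, and part of it can run in culture at ordinary oxygen.

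Most hypoxia response genes had less mRNA in each resistant line than in the parent. Of the 36 genes that could be tested, 27 were lower and 5 higher in R50 than in parent, beside 31.7% and 31.6% of all genes tested. In R50_OFF, 24 were lower and 3 higher than in parent, beside 25.7% and 26.3% of all genes. STC1, VLDLR, PFKFB4 and EGLN3 fell furthest in R50, and EGLN3, STC1, PLOD2 and NDRG1 in R50_OFF. LOX, the collagen and elastin crosslinking enzyme, was higher in each line, and DDIT4, an inhibitor of mTORC1 signalling, was higher in R50. Between the resistant lines, 17 genes were higher (47.2%) and 10 lower (27.8%) in R50_OFF than in R50, beside 30.2% and 29.3% of all genes. Among all genes with a mean signal of at least 1000, 44.8% were higher and 24.7% lower in that comparison. Those shares lie near those of the hypoxia response genes. Against parent, 43.8% of genes at that signal were lower in R50 and 31.7% in R50_OFF.

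The core of the hypoxia response element is the letters ACGTG or GCGTG. The promoters below are those of genes with large falls (VLDLR, PFKFB4), of CA9, a gene widely used as a marker of HIF activity, of genes that rose (LOX, DDIT4), and of BHLHE40, which moved in opposite directions in the resistant lines. Each runs from 250 bases before to 50 bases after the RefSeq start of the gene (GRCh38.p14), 5′ to 3′ on the strand of the gene, and capitals mark ACGTG or GCGTG on either strand, so that CACGT and CACGC are the same letters read on the other strand. The windows are chr9:2621537-2621836 on the plus strand for VLDLR, chr3:48556754-48557053 on the minus strand for PFKFB4, and chr9:35673678-35673977 on the plus strand for CA9. They are chr5:122078210-122078509 on the minus strand for LOX, chr10:72273674-72273973 on the plus strand for DDIT4, and chr3:4979187-4979486 on the plus strand for BHLHE40.
VLDLR: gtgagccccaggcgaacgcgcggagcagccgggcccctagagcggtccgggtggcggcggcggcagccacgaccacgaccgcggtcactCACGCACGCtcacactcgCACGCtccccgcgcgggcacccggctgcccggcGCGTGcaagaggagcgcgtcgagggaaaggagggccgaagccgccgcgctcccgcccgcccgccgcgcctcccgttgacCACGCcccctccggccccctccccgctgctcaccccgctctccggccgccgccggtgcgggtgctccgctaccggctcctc
PFKFB4: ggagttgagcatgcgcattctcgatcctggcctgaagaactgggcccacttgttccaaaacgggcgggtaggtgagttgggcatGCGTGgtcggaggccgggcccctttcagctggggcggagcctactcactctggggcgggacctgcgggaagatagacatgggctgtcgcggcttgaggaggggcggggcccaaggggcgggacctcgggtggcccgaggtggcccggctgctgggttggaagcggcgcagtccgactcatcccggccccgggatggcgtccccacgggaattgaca
CA9: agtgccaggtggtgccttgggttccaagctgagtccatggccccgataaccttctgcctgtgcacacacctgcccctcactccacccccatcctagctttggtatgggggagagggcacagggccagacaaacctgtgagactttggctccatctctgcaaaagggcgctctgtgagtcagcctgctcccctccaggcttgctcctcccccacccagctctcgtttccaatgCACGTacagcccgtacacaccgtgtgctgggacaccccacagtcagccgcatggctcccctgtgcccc
LOX: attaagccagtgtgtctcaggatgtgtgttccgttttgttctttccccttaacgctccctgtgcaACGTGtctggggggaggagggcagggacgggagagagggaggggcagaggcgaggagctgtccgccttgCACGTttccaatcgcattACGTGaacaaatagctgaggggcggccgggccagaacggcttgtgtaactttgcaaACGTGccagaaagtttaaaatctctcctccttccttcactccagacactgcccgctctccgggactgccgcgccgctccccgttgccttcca
DDIT4: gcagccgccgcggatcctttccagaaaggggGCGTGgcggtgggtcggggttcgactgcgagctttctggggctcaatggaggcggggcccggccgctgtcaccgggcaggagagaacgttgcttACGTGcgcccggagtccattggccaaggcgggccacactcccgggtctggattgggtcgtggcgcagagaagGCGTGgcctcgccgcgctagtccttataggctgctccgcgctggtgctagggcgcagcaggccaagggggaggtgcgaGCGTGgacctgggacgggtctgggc
BHLHE40: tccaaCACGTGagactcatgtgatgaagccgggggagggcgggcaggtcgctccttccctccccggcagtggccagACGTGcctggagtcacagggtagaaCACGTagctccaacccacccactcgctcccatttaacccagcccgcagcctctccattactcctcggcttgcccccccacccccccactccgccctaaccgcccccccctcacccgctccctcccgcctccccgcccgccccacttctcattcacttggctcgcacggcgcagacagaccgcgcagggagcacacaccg

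The VLDLR window held 5 matches, all GCGTG, and that of PFKFB4 held 1 GCGTG. CA9 had 1 ACGTG, which began 18 bases before the start. LOX had 4 ACGTG matches, DDIT4 had 1 ACGTG and 3 GCGTG, and BHLHE40 had 4 ACGTG. In BHLHE40, 2 of the 4 lie on opposite strands of 1 CACGTG, the E-box, a palindrome that holds ACGTG on both strands. Windows of 300 bases were available for 33 of the 37 genes, and those of NDRG1, STC1, BNIP3L and HILPDA were not used here. ACGTG on either strand was in 18 of the 33 windows (54.5%), against 21.6% of all 27305 promoters of the same length. GCGTG was in 19 (57.6%), against 36.3%, and CACGTG was in 9 (27.3%), against 7.43%. Either core was in 28 of the 33 (84.8%), against 48.4% of all promoters. The shares over all promoters were not matched to the 33 windows for expression level or base content. The genes that fell and the genes that rose both include windows with matches, and the windows of EGLN3, MXI1, ARNT, P4HA2 and RORA had none. The annotated spans of EGLN3, P4HA2 and RORA begin well upstream of their windows, and other starts of a gene were not searched. A match is a run of letters and not a measured binding site.

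Levels are given as the deposited signal, which per the file headers was scaled to make libraries comparable and then taken per kb of median transcript length. Changes are on the scale of log2(signal + 1), where the added 1 shrinks the changes of weakly expressed genes, with standard errors (SE) and adjusted p from limma over all 16456 genes with a signal of at least 10 in at least 3 libraries, called at 0.05. These libraries held 28702938 to 35799164 reads, traced from the step size of the values, and each of the 36 tested hypoxia response genes had at least 118 reads in every library. The U87MG label was checked against markers: VIM and CD44 were high in all 9 libraries, GFAP was at most 8.18 and S100B was at 0 in all 3 parent libraries, so these astrocyte markers were absent or nearly so. The sum of 6 glioma and mesenchymal markers was 303992 to 324555 in R50_OFF, 211453 to 226162 in R50 and 334491 to 342656 in parent. VIM and CD44 made up nearly all of this sum. NES was at 18.8 to 21.8 in R50_OFF, 61.9 to 66.7 in R50 and 60.6 to 70.4 in parent. OLIG2 was at 61.7 to 82.4 in R50_OFF, 15.8 to 18.2 in R50 and 17.1 to 24.3 in parent. Markers of other cells were low, with summed signal of 15.9 to 42.6 for 3 immune genes and 6.65 to 39.6 for 2 epithelial genes. The sum of 3 endothelial genes was 138 to 156 in R50_OFF, 251 to 300.3 in R50 and 340.4 to 376 in parent, and that of 3 neuronal genes was 500.4 to 540.3 in R50_OFF, 217 to 289 in R50 and 793 to 881 in parent. PECAM1 carried most of the endothelial sum, at 125 to 136.7 in R50_OFF, 208.9 to 262 in R50 and 329.5 to 366 in parent. SYT1 and SNAP25 carried nearly all of the neuronal sum. SYT1 was at 234 to 292 in R50_OFF, 169 to 248 in R50 and 419 to 472 in parent. SNAP25 was at 230 to 266 in R50_OFF, 39.7 to 43.1 in R50 and 374 to 419 in parent. CDH5, a defining endothelial gene, was at 0 in 2 libraries each of R50_OFF and parent and at 10.7 to 27.9 in R50. RBFOX3, a defining neuronal gene, was at 0 in every R50_OFF and parent library and at 0.815 to 5.41 in R50. The part of other cell types in the results was not tested, and in bulk RNA fewer cells of a type and less RNA per cell cannot be told apart.

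One library stood apart from its group. R50 replicate 2 differed from R50 replicates 1 and 3 with a chi-square per gene of 15.0 and 18.1, against 4.64 between R50 replicates 1 and 3 and 2.37 to 6.92 within the other groups. Without it the counts against parent stayed at 27 lower and 5 higher. Against R50 without that library, 19 genes were higher and 10 lower in R50_OFF, and the median change over the 36 genes was 0.24, against 0.15 with it.

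In the R50 against parent comparison, 27 of 36 tested genes were lower (75.0%), beside 31.7% of all genes tested, and 5 were higher, beside 31.6% of all genes. At least 2-fold and past the threshold, 7 were lower, beside 9.05% of all genes, and 2 were higher, beside 12.5%. The median change was -0.57, against 0.02 over all genes. In R50_OFF against parent, which uses the same parent libraries, 24 were lower (66.7%), beside 25.7% of all genes, and 3 were higher, beside 26.3%. At least 2-fold changes were 4 lower, beside 5.11% of all genes, and 1 higher, beside 7.52%, and the median change was -0.35, against 0.0042 over all genes. The libraries of the groups did not overlap for 32 of 36 genes in R50 against parent, beside 68.2% of all genes, and for 30 in R50_OFF against parent, beside 62.8%, every called hypoxia response gene included. The hypoxia response genes are strongly expressed, with a median signal of 3503 against 356.7 over all tested genes. Among the 5501 genes with a mean signal of at least 1000, 43.8% were lower in R50 and 31.7% were lower in R50_OFF than in parent.

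**Figure D1:**
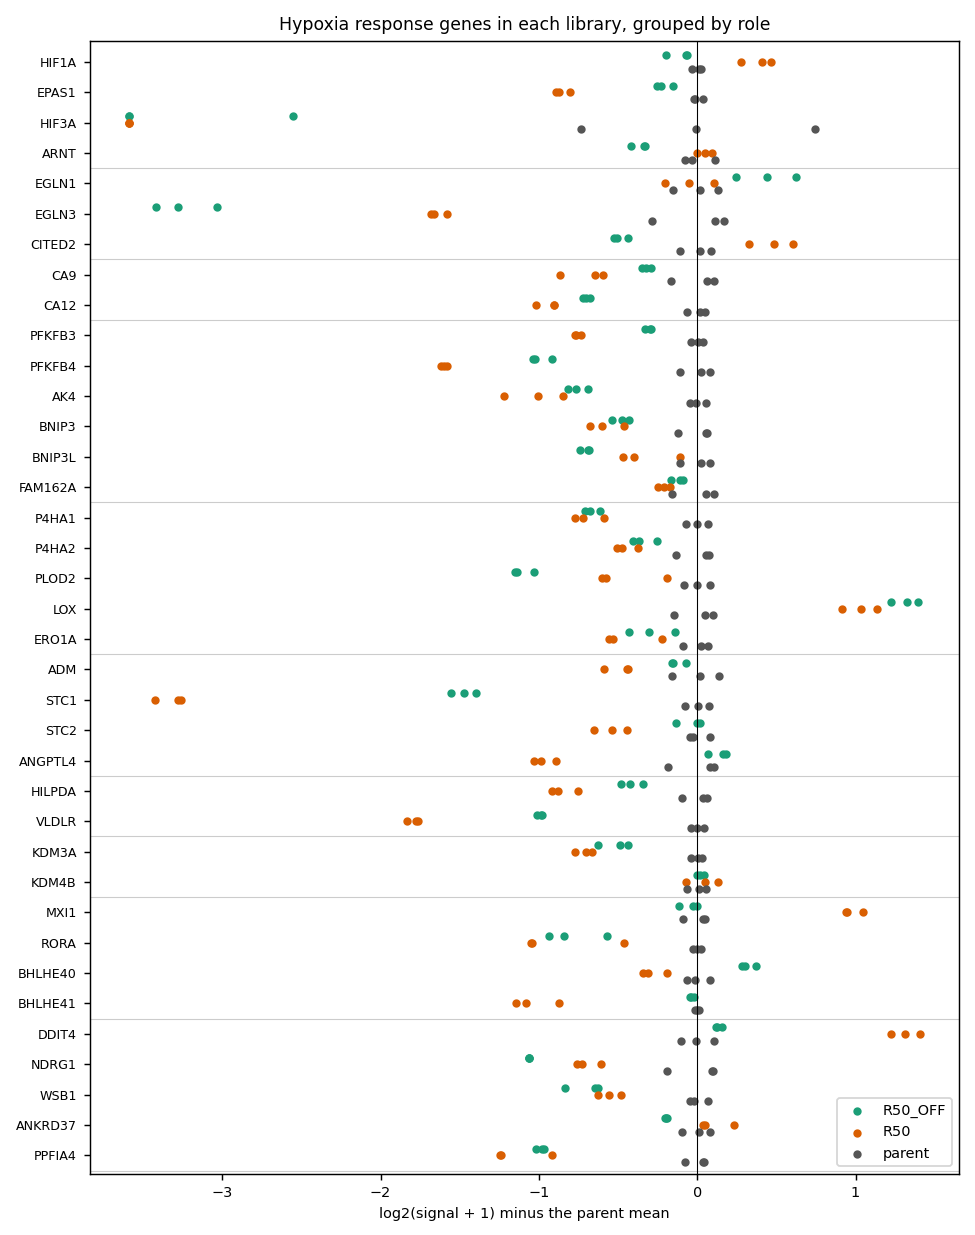
Each point is 1 library of R50_OFF, R50 or parent, placed by log2(signal + 1) minus the parent mean of that gene, with all 37 hypoxia response genes grouped by role down the page. Most R50_OFF and R50 points lie left of 0, with median changes over the 36 tested genes of -0.35 in R50_OFF and -0.57 in R50, and LOX lies to the right in each line, at 1.32 in R50_OFF and 1.03 in R50.

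The HIF subunits moved in different directions. HIF1A, the alpha subunit of HIF-1, had signal of 24369.6, 24425 and 22302 in R50_OFF, 30949, 35265 and 33894 in R50, and 24943, 25928 and 25793 in parent. All R50 libraries lay above those of the other groups. HIF1A was higher in R50 than in parent by 0.38 (SE 0.06, limma adjusted p = 0.000146), its change in R50_OFF against parent was -0.11 (adjusted p = 0.132), and it was lower in R50_OFF than in R50 by a change of -0.49 (adjusted p = 2.85e-05). EPAS1, the alpha subunit of HIF-2, had 24575, 26446 and 25073 in R50_OFF, 15824, 16031 and 16825 in R50, and 29107, 28918 and 30068 in parent. The 3 groups did not overlap, with R50 lowest. Its change was -0.86 in R50 (SE 0.04, adjusted p = 3.85e-08) and -0.21 in R50_OFF (SE 0.04, adjusted p = 0.00223) against parent.

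ARNT, the shared beta subunit, had signal of 1817, 1811 and 1714 in R50_OFF, 2288, 2365 and 2437 in R50, and 2238, 2469.6 and 2164 in parent. R50_OFF lay below both other groups, which overlapped. ARNT fell by a change of -0.36 in R50_OFF against parent (SE 0.06, limma adjusted p = 0.000324), its change in R50 was 0.05 (adjusted p = 0.491), and it was lower in R50_OFF than in R50 at -0.41 (adjusted p = 0.000111). With quantile normalization, ARNT was called higher in R50 than in parent (0.16, limma adjusted p = 0.0279). HIF3A, an alpha subunit with isoforms that restrain HIF, was near the detection limit and was not tested. It had 0, 0 and 1 traced reads in R50_OFF, 0 in each R50 library, and 6, 21 and 10 in parent. A count of 0 over the R50 libraries allows up to 3 reads, for counting error only.

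The oxygen sensors EGLN1 and EGLN3 moved apart. EGLN1 (PHD2), the main HIF prolyl hydroxylase, had signal of 853, 742 and 966 in R50_OFF, 545, 606 and 676 in R50, and 689, 635 and 565 in parent. It was higher in R50_OFF than in parent by 0.44 (SE 0.11, limma adjusted p = 0.0072), its change in R50 was -0.05 (adjusted p = 0.725), and it was higher in R50_OFF than in R50 by 0.48 (adjusted p = 0.00339). All R50_OFF libraries lay above the other groups, which overlapped. EGLN3 (PHD3), a hydroxylase gene that HIF itself induces, had 255, 215 and 195 in R50_OFF, 701, 654 and 661 in R50, and 1718, 2361 and 2269 in parent. The groups formed separate steps with no overlap. EGLN3 changed by -3.24 in R50_OFF (SE 0.12, adjusted p = 1.32e-08) and by -1.64 in R50 (SE 0.12, adjusted p = 7.43e-07) against parent. R50_OFF was lower than R50 by a change of -1.60 (adjusted p = 1.42e-06). The annotated span of EGLN3 overlaps SPTSSA on the same strand, whose signal averaged 50.0% of that of EGLN3.

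CITED2, which competes with HIF for the coactivators EP300 and CREBBP, had signal of 457, 461 and 485 in R50_OFF, 823, 919.7 and 998 in R50, and 609.9, 698 and 665 in parent. R50 lay above parent and R50_OFF below it. The change against parent was 0.47 in R50 (SE 0.08, limma adjusted p = 0.000349) and -0.49 in R50_OFF (SE 0.08, adjusted p = 0.000391).

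**Figure D2:**
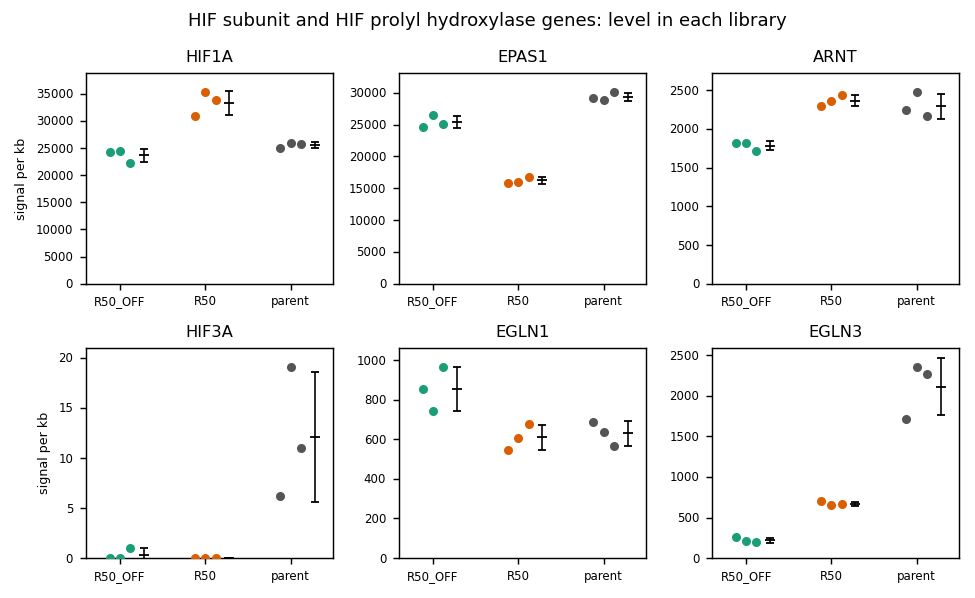
Signal per kb of the 4 HIF subunits and the EGLN sensors, with 1 point per library in R50_OFF, R50 and parent, bars for the mean and SD (n = 3), and a separate axis from 0 for each gene. EGLN3 averaged 222 in R50_OFF, 672 in R50 and 2116 in parent, while HIF1A was highest in R50.

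Both carbonic anhydrases, membrane enzymes that HIF induces and that regulate pH at the cell surface, were lower in each line. Of all genes, 31.7% were lower in R50 and 25.7% in R50_OFF. CA9 had signal of 19439, 19783 and 20263 in R50_OFF, 15807, 13575 and 16387 in R50, and 22031, 25847 and 26641 in parent. Its change was -0.70 in R50 (SE 0.08, limma adjusted p = 2.25e-05) and -0.32 in R50_OFF (SE 0.08, adjusted p = 0.00712). CA12 had 8126, 7970.1 and 7863 in R50_OFF, 6401, 6929 and 6934 in R50, and 12418, 13152 and 13429.6 in parent. Its change was -0.94 in R50 (SE 0.05, adjusted p = 2.85e-08) and -0.70 in R50_OFF (SE 0.05, adjusted p = 7.12e-07). For each of the 2 genes the 3 groups did not overlap.

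Of the 6 genes of glucose and mitochondrial metabolism, all 6 were lower in R50, beside 31.7% of all genes, and 5 in R50_OFF, beside 25.7%, than in parent. PFKFB4 both makes and breaks down the sugar phosphate that drives glycolysis. It had signal of 4723, 4392 and 4356 in R50_OFF, 2904, 2981 and 2937 in R50, and 8266, 9457 and 9087 in parent. Its change was -1.60 in R50 (SE 0.06, limma adjusted p = 1.7e-09) and -0.99 in R50_OFF (SE 0.06, adjusted p = 1.78e-07). PFKFB3, its relative, changed by -0.76 in R50 and -0.31 in R50_OFF (adjusted p = 5.34e-08 and 9.95e-05). AK4, a mitochondrial adenylate kinase, had 1928, 2035 and 1863 in R50_OFF, 1636, 1819.5 and 1406 in R50, and 3175, 3411 and 3263 in parent. Every library of each resistant line lay below every parent library, with changes of -1.03 in R50 and -0.76 in R50_OFF (adjusted p = 1.15e-06 and 2.24e-05).

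BNIP3 and BNIP3L are mitophagy receptors, which mark mitochondria for removal. BNIP3L had signal of 7525, 7786 and 7808 in R50_OFF, 9513, 11626 and 9075 in R50, and 11632, 13293 and 12772 in parent. R50_OFF was the lowest group, and R50 replicate 2 lay just under the lowest parent library. BNIP3L changed by -0.70 in R50_OFF (SE 0.08, limma adjusted p = 4.7e-05) and by -0.33 in R50 (SE 0.08, adjusted p = 0.0059), or -0.43 in R50 without replicate 2. With quantile normalization the R50 change was -0.12 and the call was lost (adjusted p = 0.238). PNMA2 overlaps it on the other strand with 29.9% of its signal. BNIP3 changed by -0.48 in R50_OFF and -0.58 in R50 (adjusted p = 0.000138 and 2.16e-05). FAM162A, a mitochondrial protein gene, changed by -0.21 in R50 (adjusted p = 0.0147), a call lost without parent replicate 2 or 3 (adjusted p = 0.0592 and 0.0691) and with quantile normalization (adjusted p = 0.283). Its change in R50_OFF was -0.12 (adjusted p = 0.146), and was called without parent replicate 1 (-0.20, adjusted p = 0.0096).

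Among the 5 genes of collagen modification and oxidative protein folding, 4 were lower and LOX was higher in each line, beside 31.7% lower and 31.6% higher of all genes in R50 and 25.7% and 26.3% in R50_OFF. LOX had signal of 7640.0, 8597 and 8184 in R50_OFF, 6158, 7165 and 6702 in R50, and 2945, 3501 and 3375 in parent. Every library of the resistant lines lay far above the parent. LOX was higher by 1.32 in R50_OFF (SE 0.08, limma adjusted p = 2.42e-07) and by 1.03 in R50 (SE 0.08, adjusted p = 6.46e-07). PLOD2, which hydroxylates collagen lysines before LOX acts, had 7021, 7640.4 and 7062 in R50_OFF, 10267, 13650.2 and 10429 in R50, and 14720.5, 16479 and 15599.6 in parent. It changed by -1.11 in R50_OFF (SE 0.10, adjusted p = 5e-06) and by -0.46 in R50 (SE 0.10, adjusted p = 0.00173), or -0.59 in R50 without replicate 2, the highest R50 library. With quantile normalization the R50 change of PLOD2 was -0.24 and the call was lost (adjusted p = 0.0537).

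The collagen prolyl hydroxylase genes P4HA1 and P4HA2 fell as well. P4HA1 changed by -0.67 in R50_OFF and -0.69 in R50 (limma adjusted p = 5.39e-06 and 1.89e-06), and P4HA2 by -0.34 in R50_OFF and -0.45 in R50 (adjusted p = 0.00113 and 0.000111). ERO1A, the oxidase that feeds disulfide formation in the endoplasmic reticulum, changed by -0.44 in R50 (adjusted p = 0.00202) and by -0.29 in R50_OFF (adjusted p = 0.0247). The R50_OFF call was lost when parent replicate 2 or 3, or R50_OFF replicate 1 or 3, was left out, with adjusted p of 0.0805, 0.0648, 0.0963 and 0.0641. Without the filter or without the mean-variance trend it was lost as well (adjusted p = 0.0547 and 0.065).

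All 4 secreted factors were lower in R50, beside 31.7% of all genes, and 1 of them, STC1, was lower in R50_OFF, beside 25.7%. STC1, a glycoprotein hormone, had signal of 6211, 6929 and 6569.7 in R50_OFF, 1698, 1875 and 1901 in R50, and 17286, 18301 and 19228 in parent. The R50 mean was 0.0999 of the parent mean, and R50_OFF lay between the other groups without overlap. STC1 changed by -3.32 in R50 (SE 0.06, limma adjusted p = 3.16e-11) and by -1.48 in R50_OFF (SE 0.06, adjusted p = 2.25e-08). ANGPTL4, an inhibitor of lipoprotein lipase, had 2377, 2200.3 and 2344 in R50_OFF, 1056, 1127 and 1026 in R50, and 1844, 2216 and 2256 in parent. R50_OFF overlapped parent, with a change of 0.14 (95% interval -0.03 to 0.31, adjusted p = 0.16), and R50 lay below both at -0.97 against parent (adjusted p = 1.04e-06).

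STC2, a relative of STC1, changed by -0.54 in R50 (limma adjusted p = 2.25e-05) and by -0.04 in R50_OFF (95% interval -0.18 to 0.10, adjusted p = 0.627). ADM, the vasodilator peptide adrenomedullin, changed by -0.49 in R50 (adjusted p = 0.000169) and by -0.13 in R50_OFF (95% interval -0.29 to 0.04, adjusted p = 0.179). Without parent replicate 1, the lowest parent library, ADM was called lower in R50_OFF (-0.20, adjusted p = 0.0325).

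Both genes of lipid handling were lower in each line, beside 31.7% of all genes in R50 and 25.7% in R50_OFF. VLDLR, a lipoprotein receptor, had signal of 1430.0, 1467 and 1456 in R50_OFF, 811, 843 and 850.3 in R50, and 2808, 2891 and 2973 in parent. The groups stood in separate steps with narrow spread. VLDLR changed by -1.79 in R50 (SE 0.04, limma adjusted p = 1.95e-10) and by -0.99 in R50_OFF (SE 0.04, adjusted p = 3.72e-08). HILPDA, a lipid droplet protein that inhibits lipolysis, changed by -0.85 in R50 and -0.42 in R50_OFF (adjusted p = 1.47e-06 and 0.000523).

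**Figure D3:**
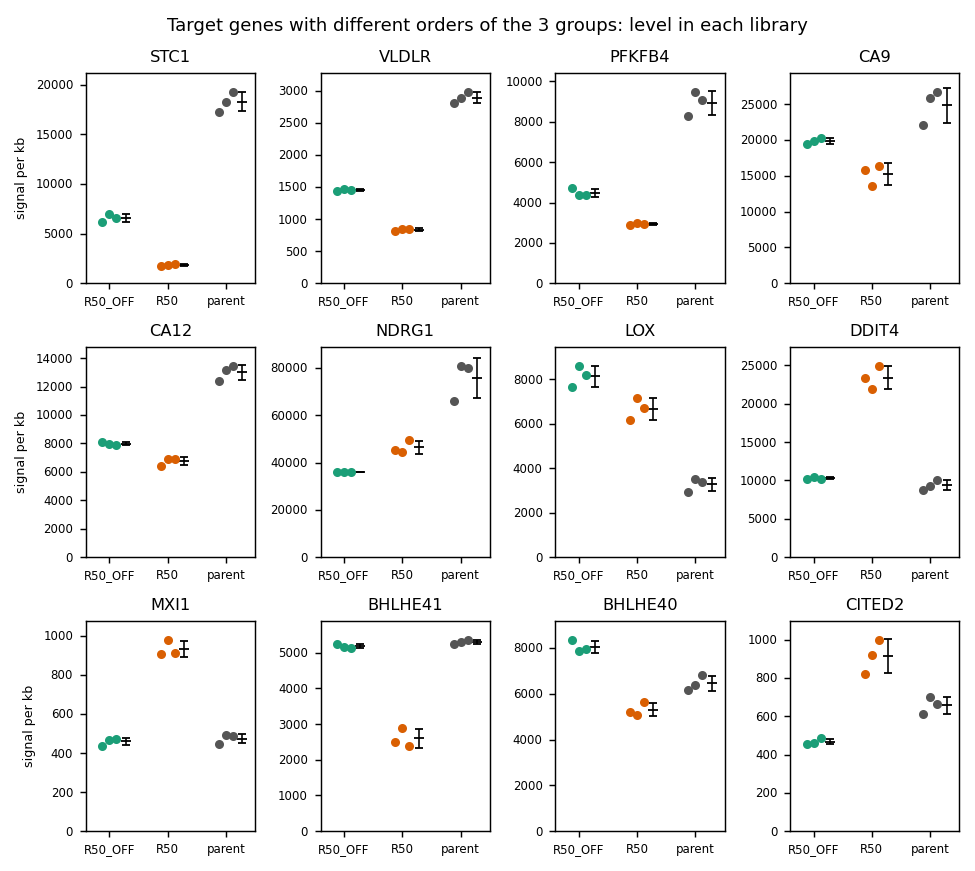
Signal per kb of 12 genes with different orders of the groups, with 1 point per library in R50_OFF, R50 and parent, bars for the mean and SD (n = 3), and a separate axis from 0 for each gene. VLDLR averaged 1451 in R50_OFF, 835 in R50 and 2891 in parent, and DDIT4 averaged 10299 in R50_OFF, 23361 in R50 and 9398 in parent.

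The histone demethylases differed. KDM3A, which removes methyl groups from histone H3 lysine 9, changed by -0.71 in R50 and -0.52 in R50_OFF (limma adjusted p = 8.1e-07 and 1.82e-05). KDM4B, a demethylase of the same kind of mark, had signal between 641 and 660.3 in R50_OFF, 611 and 703 in R50, and 613 and 666 in parent. Its groups overlapped in all 3 comparisons, with changes of 0.02 in R50_OFF (95% interval -0.12 to 0.16) and 0.04 in R50 (95% interval -0.11 to 0.18) against parent.

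Of the 4 transcription factor genes, 3 were lower and 1 higher in R50 than in parent, beside 31.7% and 31.6% of all genes. In R50_OFF, 1 was lower and 1 higher, beside 25.7% and 26.3%. MXI1, an antagonist of MYC, had signal of 438, 466 and 474 in R50_OFF, 908, 979 and 912 in R50, and 446, 491 and 486 in parent. R50 stood apart, while R50_OFF and parent overlapped. MXI1 was higher in R50 than in parent by 0.98 (SE 0.06, limma adjusted p = 2.26e-07), and its change in R50_OFF was -0.05 (95% interval -0.19 to 0.10, adjusted p = 0.578). RORA, a nuclear receptor, had 767, 991 and 819.6 in R50_OFF, 714, 1065 and 710.2 in R50, and 1445, 1472 and 1493 in parent. Both lines lay below parent, by changes of -0.78 in R50_OFF (adjusted p = 0.000973) and -0.85 in R50 (adjusted p = 0.000383), or -1.04 in R50 without replicate 2.

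BHLHE40 and BHLHE41 (DEC1 and DEC2) are related repressors of the circadian clock. BHLHE40 had signal of 8345, 7855 and 7950.2 in R50_OFF, 5198, 5086 and 5642 in R50, and 6165, 6394 and 6819 in parent. It was higher in R50_OFF by 0.32 (SE 0.05, limma adjusted p = 0.000566) and lower in R50 at -0.28 (SE 0.05, adjusted p = 0.00088). The R50 call was lost with quantile normalization, at a change of -0.13 (adjusted p = 0.052). BHLHE41 had 5237, 5166 and 5142 in R50_OFF, 2505, 2889 and 2397 in R50, and 5248, 5305 and 5353 in parent. Its change was -1.03 in R50 (SE 0.06, adjusted p = 1.13e-07) and -0.03 in R50_OFF (95% interval -0.17 to 0.10, adjusted p = 0.681).

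In the group of growth restraint and other targets, DDIT4 had signal of 10201, 10464 and 10231 in R50_OFF, 23281, 21929 and 24872 in R50, and 8754, 9324 and 10116 in parent. DDIT4 was higher in R50 than in parent by 1.31 (SE 0.06, limma adjusted p = 1.51e-08). Its change in R50_OFF was 0.13 (adjusted p = 0.0865), and it passed the threshold without parent replicate 3 (0.19, adjusted p = 0.0288). It also passed with median centring (0.17, adjusted p = 0.0422) and in a fit of only the groups compared (adjusted p = 0.0475). NDRG1, a stress-responsive gene that limits growth and spread in several cancers, had 36002, 36027 and 35961 in R50_OFF, 45334, 44454 and 49385 in R50, and 65825, 80730.5 and 80129 in parent. The groups did not overlap, and R50_OFF was lowest. NDRG1 changed by -1.06 in R50_OFF (SE 0.08, adjusted p = 1.09e-06) and by -0.70 in R50 (SE 0.08, adjusted p = 1.25e-05).

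WSB1, a ubiquitin ligase adaptor, had signal of 1726, 1705 and 1491 in R50_OFF, 1813, 1907 and 1723 in R50, and 2789.8, 2582 and 2627 in parent. Both lines lay below parent, at -0.70 in R50_OFF and -0.56 in R50 (limma adjusted p = 7.94e-06 and 2.49e-05). PPFIA4, a liprin scaffold gene and the tested member with the lowest signal, had 68.5, 71 and 70.3 in R50_OFF, 58.1, 58.6 and 73.3 in R50, and 132, 143 and 143 in parent. It changed by -0.99 in R50_OFF and -1.14 in R50 (adjusted p = 5.57e-05 and 1.12e-05). ANKRD37, an ankyrin repeat gene, changed by -0.20 in R50_OFF (adjusted p = 0.0361) and by 0.11 in R50 (adjusted p = 0.209). The R50_OFF call was lost without parent replicate 1 or 2 or any 1 of the R50_OFF libraries (adjusted p between 0.0743 and 0.139). It was also lost with quantile normalization or median centring (adjusted p = 0.177 and 0.0868). Without the filter or without the mean-variance trend it was lost too (adjusted p = 0.0593 and 0.0513). UFSP2 overlaps ANKRD37 on the other strand with 317% of its signal. Libraries were made with a stranded kit, but the strand setting of the counting was not given in the sources used here, so reads of overlapping genes cannot be told apart.

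Set directly against R50, R50_OFF had 17 of 36 genes higher (47.2%), beside 30.2% of all genes tested, and 10 lower (27.8%), beside 29.3% of all genes. The median change was 0.15, against -0.0047 over all genes. With quantile normalization 13 were higher and 11 lower, with a median change of 0.08. The groups did not overlap for 28 of 36 genes, beside 63.4% of all genes. At least 2-fold changes were 3 higher (STC1, ANGPTL4 and BHLHE41), beside 7.55% of all genes, and 3 lower (EGLN3, DDIT4 and MXI1), beside 9.18%. Among the 5501 genes with a mean signal of at least 1000, 44.8% were higher and 24.7% lower in R50_OFF. All 4 secreted factors, both carbonic anhydrases and both genes of lipid handling were higher in R50_OFF than in R50. Of the 5 genes of growth restraint and other targets, 0 were higher and 3 lower. Of the 3 tested HIF subunits, 1 was higher and 2 lower, as for the 3 genes of oxygen sensing and HIF feedback. The calls of both carbonic anhydrases were lost with quantile normalization, where CA9 was at 0.17 (limma adjusted p = 0.0847) and CA12 at 0.10 (limma adjusted p = 0.0825). Among the genes higher in R50_OFF, the largest differences were 1.85 for STC1 (SE 0.06, limma adjusted p = 3.27e-09), 1.11 for ANGPTL4 (SE 0.08, adjusted p = 6.09e-07) and 1.00 for BHLHE41 (SE 0.06, adjusted p = 2.58e-07). VLDLR was higher by 0.80, EPAS1 by 0.64, PFKFB4 by 0.61 and BHLHE40 by 0.60 (adjusted p = 1.29e-07, 6.06e-07, 4.47e-06 and 4.3e-06).

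Lower in R50_OFF than in R50 were EGLN3 at -1.60, DDIT4 at -1.18 (SE 0.06, limma adjusted p = 6.87e-08), MXI1 at -1.02 (SE 0.06, adjusted p = 2.79e-07), CITED2 at -0.96 (SE 0.08, adjusted p = 2.17e-06) and PLOD2 at -0.65 (SE 0.10, adjusted p = 0.000186). BNIP3L was at -0.38, NDRG1 at -0.36 and ANKRD37 at -0.30 (limma adjusted p = 0.00275, 0.00174 and 0.00343). Without R50 replicate 2, PLOD2 was at -0.52 and BNIP3L at -0.27. RORA differed by 0.07 (adjusted p = 0.705) and ERO1A by 0.15 (adjusted p = 0.208) with all libraries, and by 0.26 (adjusted p = 0.0291) and 0.25 (adjusted p = 0.014) without R50 replicate 2. AK4 was higher by 0.27 (adjusted p = 0.0158), a call lost without R50_OFF replicate 2 (adjusted p = 0.0576). WSB1 was at -0.15 (adjusted p = 0.0758) and passed the threshold without R50 replicate 3 (-0.18, adjusted p = 0.0495). It also passed with quantile normalization (-0.20, adjusted p = 0.0215). With the replicate block, both WSB1 (adjusted p = 0.0401) and ERO1A (adjusted p = 0.0419) passed. By group mean, R50_OFF was the lowest group for 10 of the 36 genes, R50 for 23 and parent for 3. Over all tested genes the shares were 29.0% for R50_OFF, 36.4% for R50 and 34.6% for parent.

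**Figure D4:**
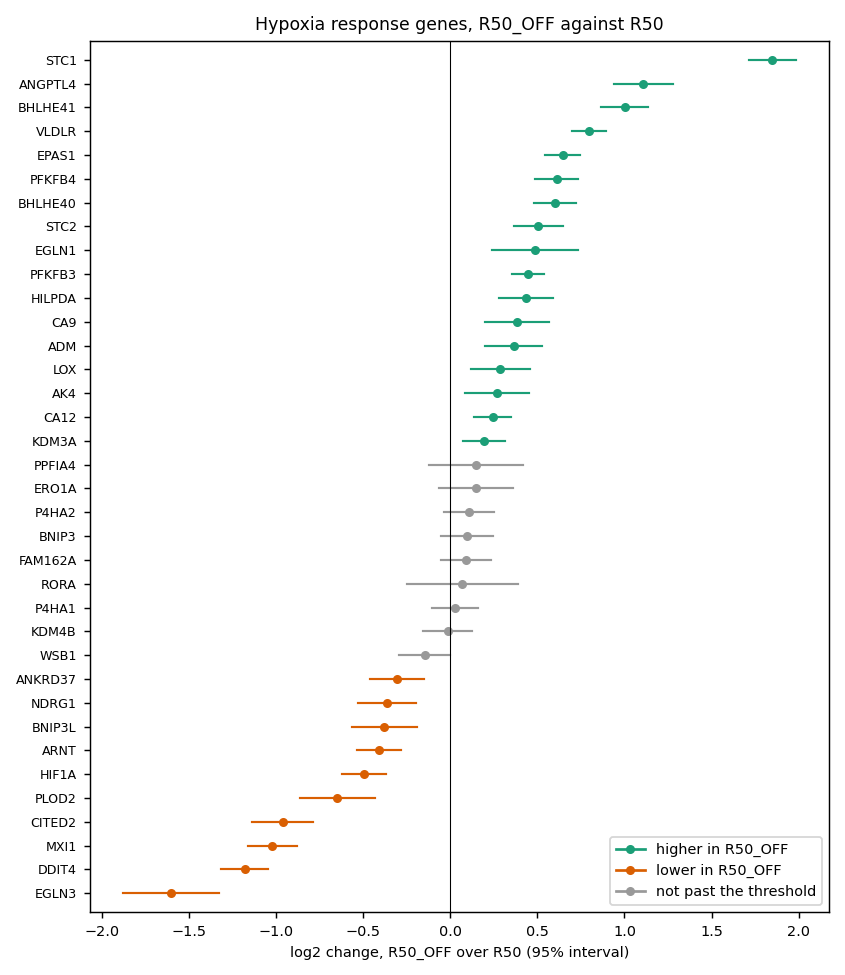
Log2 change of each tested hypoxia response gene in R50_OFF over R50 with its 95% interval, ordered by size and coloured by whether the gene was higher, lower or not past the threshold. The range runs from EGLN3 at -1.60 to STC1 at 1.85, with 17 genes higher and 10 lower.

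To show whether whole chromosome stretches moved with the hypoxia response genes, the change of each gene was set beside the median change of the tested genes within 5 Mb of it, as a description. The change was below the neighbours' median for 30 of 36 genes in R50 against parent, with a median difference of -0.61, and for 30 of 36 in R50_OFF against parent, with a median difference of -0.43. In R50_OFF against R50 it was below for 14 of 36, with a median difference of 0.24. No share over all genes was taken for these counts. Most of the 36 genes were lower than parent, so the counts against parent partly repeat that fall. VLDLR at -1.79 in R50 had neighbours at a median of -0.07, and EGLN3 at -3.24 in R50_OFF had neighbours at 0.14. For other genes the neighbours moved the same way: LOX at 1.03 in R50 had neighbours at 0.64, EPAS1 at -0.86 in R50 had neighbours at -0.44, and EGLN1 at 0.44 in R50_OFF had neighbours at 0.31. HIF1A at 0.38 and CITED2 at 0.47 in R50 had neighbours at 0.20 and 0.22. In R50_OFF, LOX at 1.32 had neighbours at 0.16. Over all tested genes of the same chromosome, the median change in R50 was 0.30 for HIF1A and 0.32 for CITED2. That median was -0.34 for EPAS1 and 0.02 for LOX in R50, and -0.02 for EGLN1 in R50_OFF. The part of a shift of the surrounding region in these changes was not tested.

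Other genes of the pathway were listed by function. Of 10 genes that degrade or inhibit HIF or act as its cofactors, 4 were lower and 2 higher in R50, and 4 lower and 3 higher in R50_OFF, than in parent, with medians of -0.16 in R50 and -0.12 in R50_OFF. These shares lie near those of all genes, 31.7% lower and 31.6% higher in R50 and 25.7% and 26.3% in R50_OFF. ARNT2, a relative of ARNT that can pair with HIF alpha subunits, had signal of 995, 959.7 and 1081 in R50_OFF, 194, 172 and 239 in R50, and 362, 305 and 334 in parent. It was higher in R50_OFF by 1.60 (SE 0.11, limma adjusted p = 1.12e-06) and lower in R50 at -0.74 (SE 0.11, adjusted p = 0.000201), and differed between R50_OFF and R50 by 2.33 (adjusted p = 4.97e-08). EGLN2, the hydroxylase PHD1, was at -1.47 in R50 (adjusted p = 0.00878) on 11 to 87 reads per library, and CUL2, the scaffold of the VHL ligase, at -0.55 (adjusted p = 1.99e-05). VHL, the substrate receptor, was at -0.53 in R50_OFF (adjusted p = 0.00253), and RBX1, the RING subunit, at 0.34 (adjusted p = 0.000524). Against R50, R50_OFF had 3 of the 10 higher and 3 lower, beside 30.2% and 29.3% of all genes, with VHL, whose libraries overlapped between the groups, at -0.32 (adjusted p = 0.0321) and EP300, a coactivator, at -0.29 (adjusted p = 0.0016).

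Of 24 tested HIF targets outside the 37 genes, 18 were lower and 4 higher in R50, and 15 lower and 3 higher in R50_OFF, than in parent, with medians of -0.40 in R50 and -0.29 in R50_OFF. Over all genes 31.7% were lower and 31.6% higher in R50, and 25.7% and 26.3% in R50_OFF. Among genes with a mean signal of at least 1000, 43.8% were lower and 26.2% higher in R50, and 31.7% and 31.4% in R50_OFF. In R50_OFF against R50, 14 of the 24 were higher (58.3%) and 5 lower (20.8%), with a median of 0.28, beside 30.2% and 29.3% of all genes and 44.8% and 24.7% of genes with a mean signal of at least 1000. ENO2, a glycolytic enolase, was at -1.37 in R50 (limma adjusted p = 1.89e-09). PDK1, a kinase that inhibits the pyruvate dehydrogenase enzyme of mitochondria, was at -0.75 in R50_OFF (adjusted p = 5.9e-05).

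NDUFA4L2, a mitochondrial protein gene, went the other way, with signal of 204, 267 and 206 in R50_OFF, 61.1, 62.8 and 82.4 in R50, and 10.9, 16.2 and 5.72 in parent. It was higher by 4.34 in R50_OFF (SE 0.29, limma adjusted p = 7.56e-07) and by 2.64 in R50 (SE 0.29, adjusted p = 1.58e-05) against parent. It was higher in R50_OFF than in R50 by 1.70 (adjusted p = 0.000521), and it overlaps the far more abundant SHMT2 on the other strand. MIF, a cytokine, was higher in R50_OFF by 0.93 (adjusted p = 0.000877), and ALDOA, a glycolytic aldolase, was higher in R50_OFF than in R50 by 1.17 (adjusted p = 0.00153). CXCR4, the remaining listed target, was under the filter.

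**Figure D5:**
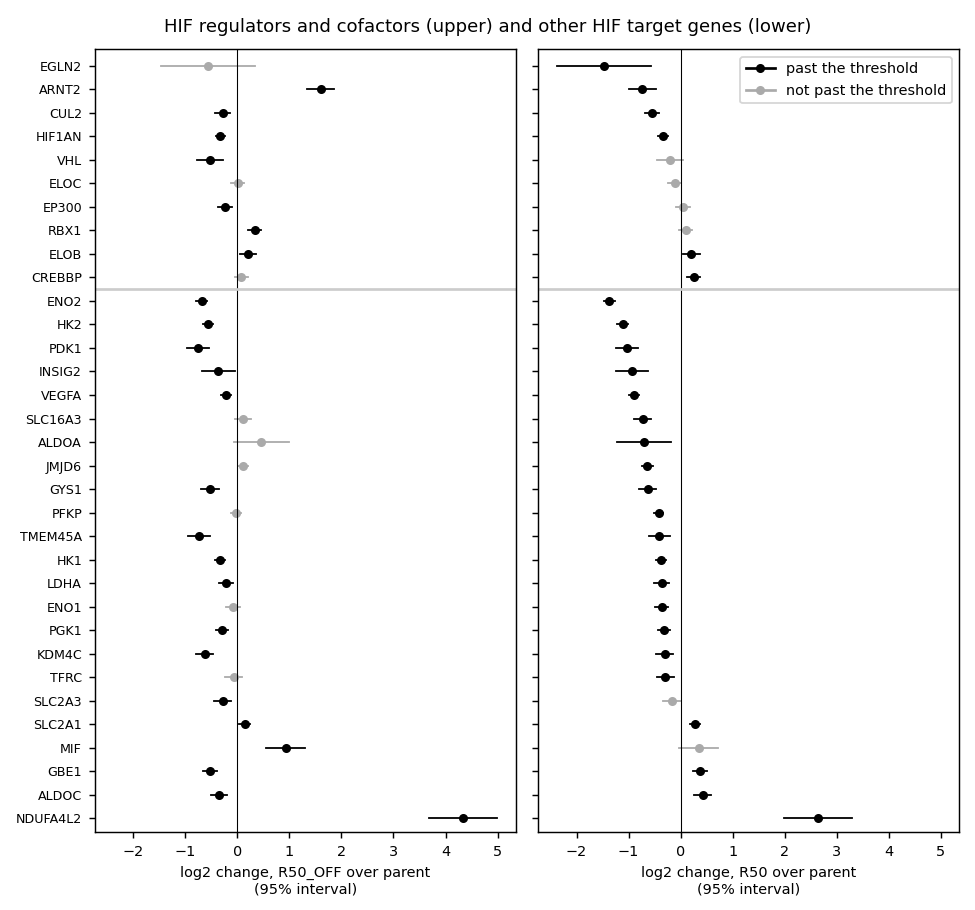
Log2 change with its 95% interval for the HIF regulators and cofactors (upper block) and the other HIF targets (lower block), in R50_OFF against parent (left) and R50 against parent (right), with black for genes past the threshold and grey for the rest. NDUFA4L2 lies at 4.34 in R50_OFF and ENO2 at -1.37 in R50 against parent, and 1 listed target is not drawn.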

How the data were processed

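PolyA RNA of 9 libraries was sequenced after a stranded library preparation, per the labels' protocols. The deposited signal was normalized between libraries and divided by median transcript length in kb by the authors, per the file headers. The build hg38 and bcl2fastq 2.17.1.14 come from the submitters' processing notes, and the aligner, the counter and its strand setting were not given in the sources used here. Signal is not a read count, so no count model was used. Values were whole multiples of a step per library and gene length for 100% of genes (relative tolerance 3e-14), which gave the traced reads, 28702938 to 35799164 per library. Symbols were matched for 33137 of 33264 IDs (99.6%), and coordinates come from GENCODE 44.

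All 9 libraries entered 1 limma 3.58.1 fit (R 4.3.3) on log2(signal + 1), with a mean-variance trend and 6 residual degrees of freedom, for genes with signal of at least 10 in at least 3 libraries. Tests were two-sided with Benjamini-Hochberg adjustment over 16456 genes at 0.05, and the fit was tested on simulated data. Genes described in full were up to 12 per comparison with the largest change among those called without overlap between groups, the HIF subunits and both EGLN genes, and up to 3 called genes per pathway list and comparison. CA9 was added for its use as a marker. The values of 1 listed pathway gene, which is part of its list's counts, are not reported here. The genes and lists were chosen with earlier results of these data known. Alternatives changed the pseudocount, filter, normalization, trend, samples and replicate block.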

Additional observations from a re-analysis of the deposited data

Results flagged for a closer look

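Of the hypoxia response genes, 2 were called in opposite directions in the resistant lines when each was set against parent. Their difference between the lines follows from that choice and is given as a description. CITED2 differed by -0.96 in R50_OFF against R50 on the log2 scale, with changes against parent of -0.49 in R50_OFF and 0.47 in R50. BHLHE40 differed by 0.60, with changes of 0.32 in R50_OFF and -0.28 in R50. The R50 call of BHLHE40 was lost with quantile normalization, at -0.13 (limma adjusted p = 0.052). Both comparisons with parent use the same 3 parent libraries.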

How the results depend on the processing

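Over 1620 values of tested genes under the alternatives, 1582 kept their side of the threshold, 26 lost a call and 12 gained one. Among called changes 0 reversed direction, while some uncalled changes among the 1582 changed sign. For EGLN1 in R50 against parent the changes ran from -0.13 to 0.03. Quantile normalization moved the median change in R50 against parent to -0.45 and the counts to 23 lower and 6 higher, and that in R50_OFF against R50 to 0.08 with 13 higher and 11 lower; the cause was not tested. It ended the R50 against parent calls of BNIP3L, FAM162A, PLOD2 and BHLHE40 (limma adjusted p = 0.238, 0.283, 0.0537 and 0.052) and the R50_OFF against R50 calls of CA9, CA12, LOX and KDM3A (adjusted p = 0.0847, 0.0825, 0.108 and 0.0713). Leaving out 1 library at a time gave medians of -0.61 to -0.52 with 26 to 27 lower and 5 higher in R50 against parent, -0.41 to -0.31 with 22 to 25 lower and 3 to 4 higher in R50_OFF against parent, and 0.10 to 0.24 with 16 to 19 higher and 10 to 11 lower in R50_OFF against R50. Deviations of same-numbered libraries of different groups correlated at -0.02 to 0.10, against -0.08 to 0.04 for libraries of different numbers. The highest was that of R50 replicate 2 with R50_OFF replicate 2. The ranges overlapped, so whether the replicate numbers mark pairs stays unclear. With the replicate block, R50 against parent had 27 lower and 5 higher, and R50_OFF against parent 24 lower and 3 higher. R50_OFF against R50 had 18 higher and 11 lower with the block, against 17 and 10 without it. Without the filter on low signal, HIF3A passed the threshold in R50 and in R50_OFF against parent (adjusted p = 0.000199 and 0.000621), on at most 21 reads per library, so depth limits what can be said of it.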
